A study of Mus musculus with 20 samples.

Results

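Siglecf encodes the sialic acid-binding receptor by which mouse eosinophils are most often recognised, and it is described here with 7 other genes of inhibitory surface receptors: Siglece, Siglecg, Cd22, Cd33, Cd300a, Cd300lf and Sirpa. The members were taken by gene symbol from the platform annotation of the array. They are 8 of the 17771 genes that the table could name, each had 1 probe set, and all 8 were among the 11767 genes bright enough to be tested. Messenger RNA was measured with one-colour arrays in eosinophils grown from mouse bone marrow and taken on culture day 12. The donors were 5 Dusp5+/+ mice (wild type) and 5 Dusp5-/- mice (knockout), which lack a nuclear phosphatase of the ERK kinases. Cultures stayed in medium alone or received the cytokine IL-33 at 25 ng/ml for 4 hours, giving 4 groups of 5 arrays. Equal replicate numbers of a genotype are treated as the same mouse, a pairing read from the values and not from the labels. Strain, sex and age of the mice, and which part of the gene was removed, are not used here.

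These receptors share a way of working. Each binds a molecule found on the body's own cells, sialic acid for the Siglecs (Siglecf, Siglece, Siglecg, Cd22 and Cd33), exposed membrane lipids for the CD300 proteins and CD47 for Sirpa. Most carry tyrosine motifs in the cytoplasmic tail, called ITIMs, which, once phosphorylated by Src-family kinases, recruit the phosphatases SHP-1 (gene Ptpn6), SHP-2 (Ptpn11) or SHIP-1 (Inpp5d) and so restrain activating receptors. On eosinophils, crosslinking of Siglec-F is known to promote cell death, and Siglec-F and the CD300 proteins are studied as brakes on allergic inflammation.

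Siglecf, Siglecg, Cd33 and Siglece lie together in a Siglec cluster on chromosome 7 of the mouse assembly GRCm38.p6, and Cd300a and Cd300lf lie in the CD300 cluster on chromosome 11. RefSeq start-site windows of that assembly were matched for 7 of the 8 genes, all but Sirpa. They were cut here to the 250 bases before and the 30 bases after an annotated start. Siglecf and Cd33 are shown because they share the longest stretch of letters of the 21 pairs of member windows. Siglecf fell and Cd33 rose with IL-33. Capitals mark runs of 10 or more bases present in both windows, and each sequence is written 5′ to 3′ along the strand of the gene. The Siglecf window is chr7:43351091-43351370 on the plus strand and the Cd33 window is chr7:43533142-43533421 on the minus strand. The Cd33 gene is annotated from 43527399 to 43537424, so its window lies inside the gene and not at its outermost start.
Siglecf: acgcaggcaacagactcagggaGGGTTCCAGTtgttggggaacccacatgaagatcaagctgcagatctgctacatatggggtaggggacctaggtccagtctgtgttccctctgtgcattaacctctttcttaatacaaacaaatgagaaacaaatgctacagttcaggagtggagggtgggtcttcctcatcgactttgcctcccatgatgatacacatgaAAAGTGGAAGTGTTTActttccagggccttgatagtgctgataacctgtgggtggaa
Cd33: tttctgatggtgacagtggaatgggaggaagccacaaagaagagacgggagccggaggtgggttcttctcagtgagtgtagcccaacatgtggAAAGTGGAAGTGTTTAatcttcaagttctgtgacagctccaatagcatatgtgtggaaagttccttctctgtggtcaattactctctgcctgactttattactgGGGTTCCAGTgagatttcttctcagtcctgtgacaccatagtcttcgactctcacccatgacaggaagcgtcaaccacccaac
The longer run, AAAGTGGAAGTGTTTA, has 16 bases and begins at position -27 from the Siglecf start and at position -157 from the Cd33 start. It was chosen as the longest run of the 21 pairs, which fixed its presence in the windows of Siglecf and Cd33. A search of either strand found it in no other of the 32851 windows. The next longest run among the 21 pairs had 11 bases. The 16-base run holds GGAAGTG, letters of the type bound by ETS factors, which 10.1% of all windows hold on at least 1 strand.

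Siglece is shown because its transcript moved the most. Its window is chr7:43660132-43660411 on the minus strand, and capitals mark matches to any of 6 motifs searched on both strands. The Siglece gene is annotated from 43648882 to 43672044, so this window too lies inside the gene.
Siglece: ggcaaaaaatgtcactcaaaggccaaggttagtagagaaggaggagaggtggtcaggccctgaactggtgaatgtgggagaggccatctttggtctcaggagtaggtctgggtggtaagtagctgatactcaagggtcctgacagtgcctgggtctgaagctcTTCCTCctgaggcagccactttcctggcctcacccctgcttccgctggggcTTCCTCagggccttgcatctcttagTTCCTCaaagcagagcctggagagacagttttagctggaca
The motifs were an NF-kB consensus searched by its usual degenerate letters (in 7.94% of all windows), TGANTCA of AP-1 (7.46%), GAGGAA of the PU.1 type (26.0%), GGAAGTG of the ETS type (10.1%), GATAA of GATA factors (24.4%) and TTGCNNAA of the C/EBP type (10.4%). All 3 matches in the Siglece window were of the PU.1 type, written on this strand as TTCCTC. A PU.1-type match was also present in the windows of Siglecf, Siglecg, Cd33, Cd300a and Cd300lf, an NF-kB and a C/EBP-type match in that of Cd300a and a GATA match in that of Siglecf. ETS-type matches were found in the windows of Siglecf, Cd33 and Cd300lf, and no window held an AP-1 match. In the Cd300lf window a PU.1-type match and an ETS-type match overlapped just after the start used here, and the Cd22 window held none of the 6. The Cd300a and Cd300lf windows also lie inside their annotated genes and not at the outermost start. A match describes letters in a short window and shows neither a bound site nor a cause of any change below.

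The identity of the cells and the genotype labels were checked first. Values are log2 expression values as the authors deposited them, levels are given as mean ± SD of 5 arrays, and differences as log2 difference ± SE from a linear model over all 20 arrays (limma), called at a Benjamini-Hochberg adjusted p under 0.05 over the 11767 genes. Of the 8 eosinophil markers on the array, 2 are given here for cell identity. Epx, the eosinophil peroxidase, lay between 12.85 and 13.81 on the 20 arrays. Prg2, the major basic protein, lay between 13.62 and 13.89. Both were near the top of the table's range of 1.27 to 13.99. Dusp5 read at least 7.85 on each wild-type array and at most 5.15 on each knockout array, although its probe set may lie outside the deleted part. Markers of other cells were also above the dim level, the 40th percentile of an array, which ranged from 3.56 to 3.68: all 10 neutrophil markers on the array and all 13 of monocytes, macrophages and dendritic cells exceeded it on at least 1 array. Of 9 mast cell and basophil markers only Mcpt4 did not, and group means reached 12.71 for Cpa3, 11.79 for Mcpt8 and 10.86 for Fcer1a. Among the neutrophil markers, group means reached 12.76 for S100a9, 12.66 for S100a8 and 11.90 for Ngp. Among those of monocytes, macrophages and dendritic cells they reached 12.67 for Lyz2 and 11.06 for Csf1r. In a bulk sample, fewer cells of a type and less RNA per cell cannot be told apart.

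IL-33 moved the receptors in different directions. In wild-type cells Siglece, Cd33, Cd300a and Siglecg rose and Siglecf fell, so that 5 of the 8 receptors passed the test, against 42.7% of all tested genes. In knockout cells all 8 passed, with Siglece, Sirpa, Cd300a, Cd300lf, Cd33 and Siglecg higher and Siglecf and Cd22 lower, against 52.2% of all tested genes. By direction, 4 receptors rose and 1 fell in wild-type cells, where 16.1% of tested genes rose and 26.7% fell. In knockout cells 6 rose and 2 fell, where 18.9% of tested genes rose and 33.2% fell. With the mouse as a fixed block 6 of the 8 receptors passed in wild-type cells, Sirpa being the addition, and all 8 in knockout cells. That fit calls 57.8% and 65.5% of all tested genes. The 8 receptors had a median difference of 0.32 (wild type) and 0.38 (knockout), beside -0.05 and -0.08 over all tested genes. The summed linear signal of the 9 mast cell and basophil markers moved with IL-33 too, from 11400 to 13300 on untreated to 9530 to 12300 on IL-33 wild-type arrays, and from 11700 to 13000 to 10400 to 11100 on knockout arrays, where the groups did not overlap. Of the 7 tested, Ms4a2 rose and Mcpt8 and Fcer1a fell in both genotypes, and Kit fell in knockout cells. Of the 8 eosinophil markers, 2 rose and 2 fell with IL-33 in each genotype. In wild-type and knockout cells Il5ra was at -0.84 and -1.08 and Alox15 at -0.53 and -0.62. Adgre1 was at 0.7 and 0.66 and Gata1 at 0.26 and 0.24. Epx, Prg2, Prg3 and Ccr3 did not pass in limma. The part of these markers in the receptor differences was not tested.

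**Figure D1:**
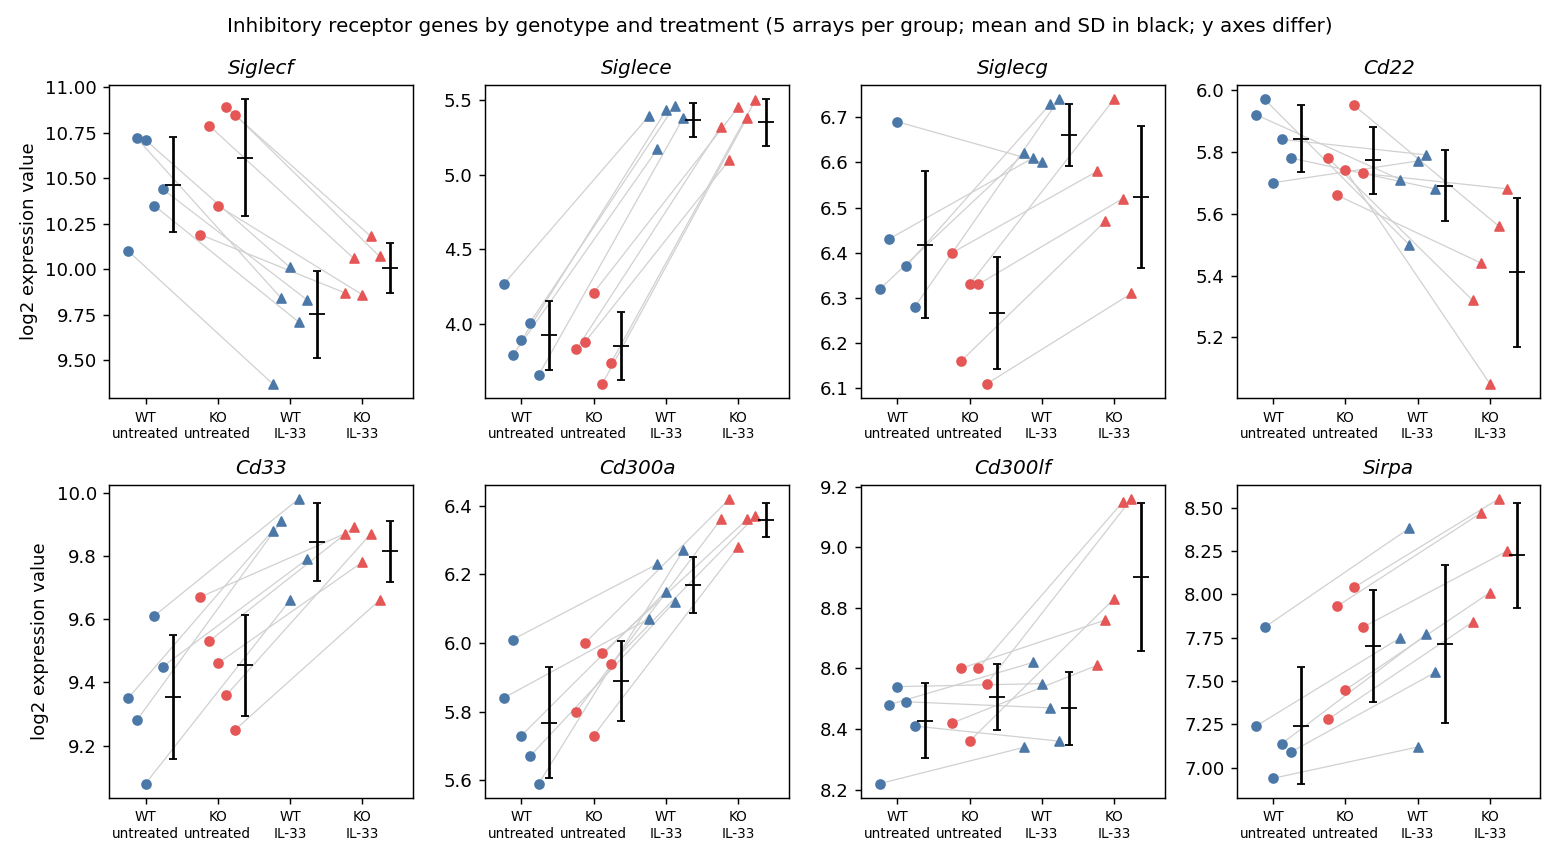
Log2 expression value (y axis, a different range in each panel) of the 8 receptor genes in the 4 groups of 5 arrays (x axis). Circles are untreated and triangles IL-33 arrays, blue is wild type (WT) and red knockout (KO), grey lines join arrays of the same mouse, and black marks give mean and SD; Siglecf lines fall in all 10 mice and Siglece, Cd33, Cd300a and Sirpa lines rise in all 10.

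Siglecf was lower after IL-33 in both genotypes. In untreated wild-type cells its 5 arrays read 10.10, 10.72, 10.71, 10.35 and 10.44, and after IL-33 the same mice read 9.37, 9.84, 10.01, 9.71 and 9.83. In knockout cells the untreated arrays read 10.19, 10.79, 10.35, 10.89 and 10.85 and the IL-33 arrays 9.87, 10.06, 9.86, 10.18 and 10.07. Every IL-33 array was below every untreated array of its genotype, in knockout cells by a narrow margin between mouse 1 untreated and mouse 4 with IL-33. Siglecf fell by 0.71 ± 0.15 in wild-type cells (adjusted p = 6.0e-04, limma), a 1.64-fold lower level, and by 0.61 ± 0.15 in knockout cells (adjusted p = 0.00173), a 1.52-fold lower level. It went down in 10 of 10 mice, by 0.61 to 0.88 in wild-type and 0.32 to 0.78 in knockout mice. The group means ran from 10.61 ± 0.32 (untreated knockout) over 10.46 ± 0.26 (untreated wild type) and 10.01 ± 0.14 (knockout with IL-33) to 9.75 ± 0.24 (wild type with IL-33), and neighbours of the same treatment overlapped.

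Siglece, an inhibitory Siglec best known from neutrophils and macrophages, changed the other way and by more. Its untreated arrays read 4.27, 3.79, 3.89, 4.01 and 3.66 in wild-type cells and 3.83, 3.88, 4.21, 3.6 and 3.74 in knockout cells, close to the dim level. After IL-33 they read 5.39, 5.17, 5.43, 5.46 and 5.38 in wild-type and 5.32, 5.10, 5.45, 5.38 and 5.50 in knockout cells. The treated and untreated arrays were well apart in both genotypes, and the genotypes overlapped in each treatment. The rise was 1.44 ± 0.12 in wild-type cells (2.72-fold, adjusted p = 4.4e-09, limma) and 1.5 ± 0.12 in knockout cells (2.83-fold, adjusted p = 1.6e-09), upward in 10 of 10 mice. The summed linear signal of the 10 neutrophil markers, cells in which Siglece is also found, was 16100 to 23200 on untreated and 13100 to 22900 on IL-33 wild-type arrays, and 15700 to 24000 and 13400 to 19900 on the knockout arrays. The part of these markers in the Siglece difference was not tested.

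Cd33, whose human counterpart is an inhibitory myeloid Siglec and whose mouse form lacks the canonical ITIM, rose in both genotypes. Wild-type arrays read 9.35, 9.28, 9.08, 9.61 and 9.45 untreated and 9.88, 9.91, 9.66, 9.98 and 9.79 after IL-33. Knockout arrays read 9.67, 9.53, 9.46, 9.36 and 9.25 untreated and 9.87, 9.89, 9.78, 9.87 and 9.66 after IL-33. Treated and untreated arrays did not overlap in wild-type cells, whereas in knockout cells untreated mouse 1, at 9.67, was just above the lowest treated array. The rises were 0.49 ± 0.09 (adjusted p = 3.1e-04, limma) and 0.36 ± 0.09 (adjusted p = 0.00332), in 10 of 10 mice. Cd33 rose and Siglecf fell in every mouse, and the part of their shared run in these changes was not tested.

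Siglecg, best known as a brake on B cells, changed little. Its means were 6.42 ± 0.16 and 6.66 ± 0.07 in untreated and IL-33 wild-type cells and 6.27 ± 0.12 and 6.53 ± 0.16 in the knockout cells. It rose by 0.24 ± 0.09 (adjusted p = 0.0289, limma) and by 0.26 ± 0.09 (adjusted p = 0.016), with an increase in 4 wild-type and 5 knockout mice and overlapping groups in both. The wild-type call was lost without any of untreated arrays 1, 4 or 5, IL-33 arrays 4 or 5, or mice 1, 4 or 5 (adjusted p up to 0.145), and the knockout call without mouse 3 or its IL-33 array (0.0586 and 0.0545).

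Cd22, the classical Siglec of B cells, was lower after IL-33 in knockout cells. Knockout arrays read 5.78, 5.66, 5.74, 5.95 and 5.73 untreated and 5.32, 5.44, 5.05, 5.56 and 5.68 after IL-33, with knockout mouse 3 the lowest of all. The fall of 0.36 ± 0.10 passed in limma (adjusted p = 0.00375), while a further quantile normalization reduced it to 0.21 with an adjusted p of 0.0741. In wild-type cells the means were 5.84 ± 0.11 and 5.69 ± 0.12, and the difference of -0.15 ± 0.10 did not pass (adjusted p = 0.208; 95% confidence interval -0.36 to 0.05). Of the 10 B cell markers on the array, Ms4a1, Ebf1, Fcer2a and Cr2 were at or below the dim level on all 20 arrays. The summed linear signal of the 10 was 1010 to 1300 on untreated and 888 to 1250 on IL-33 knockout arrays, and its lowest knockout array was that of mouse 3 with IL-33, the array with the lowest Cd22. Most of that sum came from Cd74, with group means of 9.80 to 9.99, a gene that macrophages and dendritic cells express as well, while the means of the other 9 were at most 5.39. The summed signal of the 13 markers of monocytes, macrophages and dendritic cells was also lowest on that array, at 9290 among 9290 to 12700 on knockout arrays. Blk, the 1 of 5 tested B cell markers that passed with IL-33 in knockout cells, rose by 0.45 ± 0.11 (adjusted p = 0.00237). The part of these markers in the Cd22 difference was not tested.

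Cd300a, which binds phosphatidylserine and phosphatidylethanolamine and inhibits mast cells and eosinophils, rose in both genotypes. Wild-type arrays read 5.84, 6.01, 5.73, 5.67 and 5.59 untreated and 6.07, 6.23, 6.15, 6.12 and 6.27 after IL-33. Knockout arrays read 5.80, 6.0, 5.73, 5.97 and 5.94 untreated and 6.36, 6.42, 6.28, 6.36 and 6.37 after IL-33. Treated arrays lay above all untreated ones in each genotype. The rises were 0.40 ± 0.08 (adjusted p = 2.3e-04, limma) and 0.47 ± 0.08 (adjusted p = 2.9e-05). Siglecf, Siglece, Cd33 and Cd300a were the 4 receptors without overlap in wild-type cells (28.3% of all tested genes had none), and Siglecf, Siglece, Cd300a and Cd300lf the 4 in knockout cells (38.5%).

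Cd300lf, an inhibitory receptor of myeloid cells that binds phosphatidylserine, had the widest gap of the 8 between the responses of the genotypes. Wild-type arrays read 8.22, 8.48, 8.54, 8.49 and 8.41 untreated and 8.34, 8.62, 8.55, 8.47 and 8.36 after IL-33. Knockout arrays read 8.42, 8.60, 8.36, 8.60 and 8.55 untreated and 8.61, 8.76, 8.83, 9.15 and 9.16 after IL-33. The first 3 groups lay in a common range, and the knockout arrays with IL-33 reached above it in 4 of 5 cases. The difference with IL-33 was 0.04 ± 0.10 in wild-type cells (adjusted p = 0.771, limma; 95% confidence interval -0.17 to 0.25) and 0.39 ± 0.10 in knockout cells (1.31-fold, adjusted p = 0.00252). Wild-type mice changed by -0.05 to 0.14, with 3 up and 2 down, and knockout mice by 0.16 to 0.61, all 5 up, so that the changes did not overlap between the genotypes.

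Sirpa, the receptor for CD47 by which phagocytes recognise self cells, rose in every mouse from very unequal starting levels. Wild-type arrays read 7.24, 7.81, 6.94, 7.14 and 7.09 untreated and 7.75, 8.38, 7.12, 7.77 and 7.55 after IL-33. Knockout arrays read 7.28, 7.93, 7.45, 8.04 and 7.81 untreated and 7.84, 8.47, 8.01, 8.55 and 8.25 after IL-33. The 4 groups overlapped, yet no mouse was lower after IL-33. The difference was 0.47 ± 0.21 in wild-type cells (adjusted p = 0.0764, limma) and 0.52 ± 0.21 in knockout cells (adjusted p = 0.0427). With the mouse as a fixed block the same differences had adjusted p-values of 3.0e-05 and 9.0e-06, in a fit that calls 57.8% and 65.5% of all tested genes, and with the mouse as a random block 0.00415 and 0.00152. Without the block the knockout call was lost when untreated array 1, 3 or 5, IL-33 array 2, 4 or 5 or any 1 knockout mouse was left out (adjusted p up to 0.118). The wild-type difference passed without untreated array 2 (0.61, adjusted p = 0.0212) or IL-33 array 3 (0.62, adjusted p = 0.0203) and with quantile normalization (0.54, adjusted p = 0.0482), and the knockout difference missed the threshold with no dim filter (adjusted p = 0.0524).

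**Figure D2:**
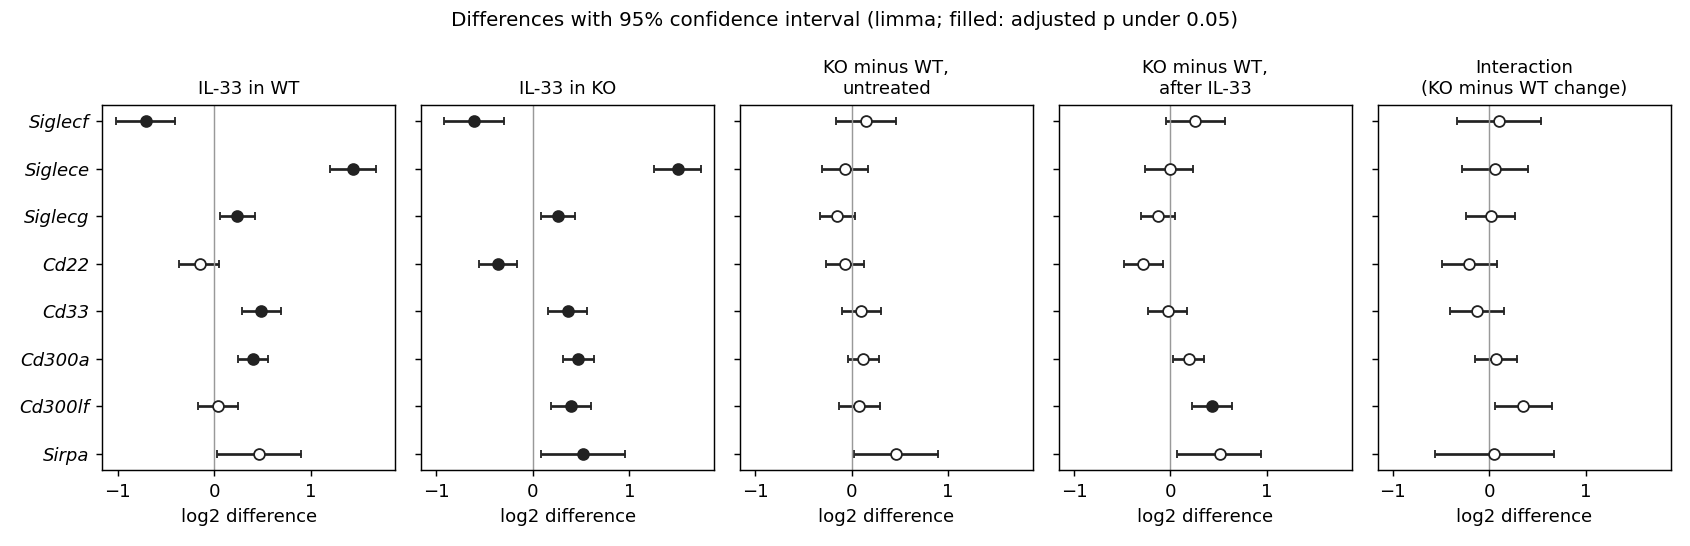
Log2 difference (x axis) of each receptor (rows) with its 95% confidence interval in 5 comparisons, from limma over all 20 arrays; filled points have an adjusted p under 0.05. Filled points number 5 and 8 in the IL-33 panels, 0 between untreated genotypes, 1 (Cd300lf) between genotypes after IL-33 and 0 for the interaction.

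No receptor passed between untreated knockout and untreated wild-type cells in limma (0 of 8, also with the mouse as a random block), where 0.0255% of all tested genes did. None of the 8 was without overlap between these groups, as 1.1% of all tested genes were. The largest difference of the 8 was that of Sirpa, at 0.46 ± 0.21 (adjusted p = 0.383). Among the other 7, the 95% confidence interval reached farthest up for Siglecf (-0.16 to 0.46) and farthest down for Siglecg (-0.33 to 0.03).

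After IL-33, Cd300lf was higher in knockout cells and was the 1 receptor of 8 to pass, where 2.21% of all tested genes passed and 0.986% were higher in the knockout. Its means were 8.90 ± 0.25 in knockout and 8.47 ± 0.12 in wild-type cells, a difference of 0.43 ± 0.10 (1.35-fold, adjusted p = 0.0347, limma), and knockout mouse 1, at 8.61, lay within the wild-type range. The call was lost without wild-type IL-33 array 1, 3, 4 or 5 or knockout IL-33 array 3, 4 or 5, without the corresponding mice, without knockout mouse 2, and when only the 2 groups were fitted (adjusted p = 0.113), and the adjusted p ranged from 0.00903 to 0.118 over the omissions. The test of the difference between the responses gave 0.35 ± 0.14 (95% confidence interval 0.06 to 0.65) with an adjusted p of 0.911 over all genes, where 0.0% of tested genes passed. An exact two-sided permutation test of the Cd300lf change over the 10 mice alone gave p = 0.00794, the smallest that 5 against 5 can give. Any 5 against 5 changes without overlap give this value, and 3.49% of all tested genes had such changes. With the mouse as a fixed or random block the adjusted p of the interaction was 0.181 and 0.137. For the other 7 receptors the interaction lay between -0.21 (Cd22, -0.49 to 0.08) and 0.10 (Siglecf, -0.33 to 0.54). None of them passed in limma.

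Cd300a separated the genotypes after IL-33 without passing the test. All 5 knockout arrays, at 6.28 to 6.42, lay above all 5 wild-type arrays, at 6.07 to 6.27, as was the case for 3.32% of all tested genes. The difference was 0.19 ± 0.08 (adjusted p = 0.138, limma). An exact permutation test over the arrays gave an unadjusted p of 0.00794, the value of any 5 against 5 arrays without overlap. In that test Siglecf and Cd22 each had an unadjusted p of 0.0397, a value whose share among all tested genes was not counted. Cd22 was at -0.28 ± 0.10 (adjusted p = 0.102), Sirpa at 0.51 ± 0.21 (adjusted p = 0.147) and Siglecf at 0.25 ± 0.15 (adjusted p = 0.298). Siglece and Cd33 were at -0.01 ± 0.12 and -0.03 ± 0.09, with intervals from -0.26 to 0.23 and from -0.23 to 0.17.

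Wild-type mouse 2 stood apart from the other wild-type mice. Its Epx values, 13.01 untreated and 12.85 with IL-33, were the lowest of the wild-type arrays, its summed eosinophil marker signal was 36800 and 36900 where the other wild-type arrays had 42900 to 45700, and its Sirpa values were the highest of the wild-type arrays. Knockout mouse 2 likewise had the lowest Epx values of the knockout arrays, 13.04 and 12.89, and the lowest summed signals, 37700 and 37500. Its Sirpa values, 7.93 and 8.47, were below those of knockout mouse 4. Wild-type mouse 2 also had the lowest Cd22 value of the wild-type IL-33 arrays, 5.5. Leaving it out therefore had to widen the Sirpa differences and the Cd22 difference after IL-33, and the calls follow in part from that choice. Without wild-type mouse 2, Sirpa passed between genotypes both untreated (0.60, adjusted p = 0.0497, limma) and after IL-33 (0.68, adjusted p = 0.0136). Cd22 passed between genotypes after IL-33 (-0.32, adjusted p = 0.0315). The share of all tested genes that passed also grew, to 5.53% untreated and 17.8% after IL-33.

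Sirpa and Siglecf were also the members in which mice kept their rank. Each array's deviation from its group mean was compared between the untreated and the IL-33 array of the same mouse, over 10 mice, with an exact permutation of mice within genotype and adjustment over the 8 receptors. For Sirpa Pearson's r was 0.95 (p = 1.4e-04, adjusted 0.00111) and Spearman's rho 0.94 (p = 9.7e-04, adjusted 0.005), and r was 0.88 without the 2 mice farthest from the median. For Siglecf r was 0.87 (p = 7.6e-04, adjusted 0.00306) and rho 0.89 (p = 0.00125, adjusted 0.005), and r was 0.83 without the 2 farthest mice. These p-values test for any agreement, and arrays were paired by number because their deviations over all tested genes agreed. They therefore cannot show more agreement than in other genes. Such agreement was common on these arrays, with a median r of 0.48 over all tested genes, 4.65% of which reached the value of Sirpa and 14.1% that of Siglecf. Cd33 had an r of 0.75 (p = 0.0269, adjusted 0.0719, exact permutation), which was 0.47 without the 2 farthest mice, and the other 5 receptors lay between -0.06 and 0.56.

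**Figure D3:**
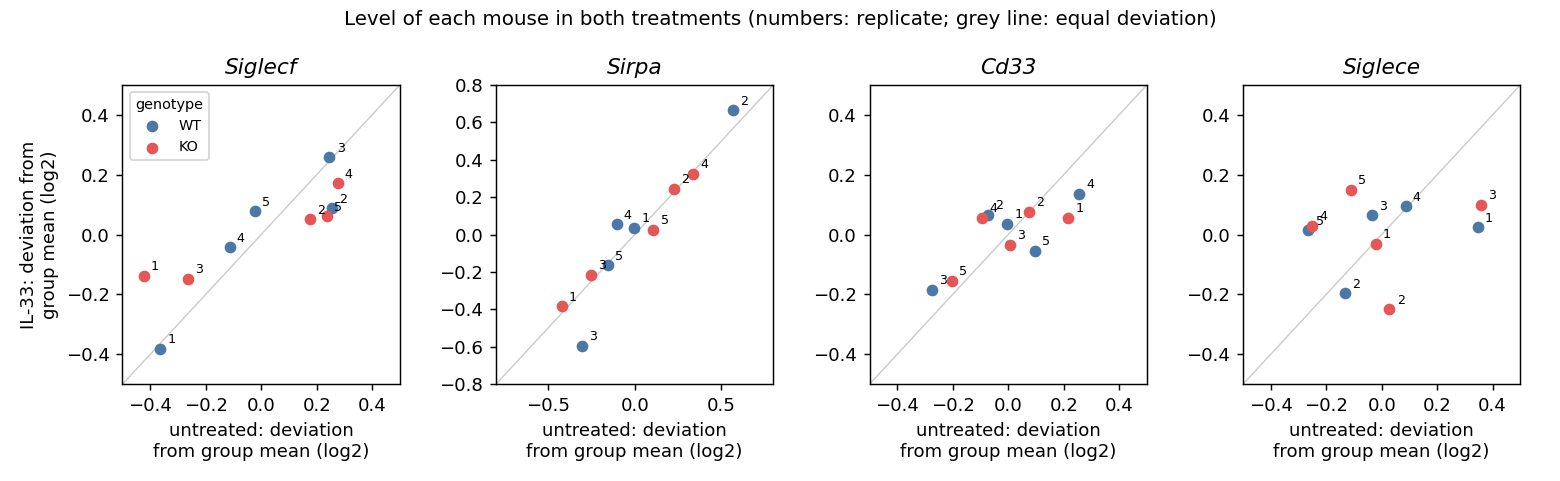
Deviation of each mouse from its group mean on the untreated array (x axis, log2) and on the IL-33 array (y axis, log2) for Siglecf, Sirpa, Cd33 and Siglece; blue is wild type, red knockout, numbers are the mice, the grey line marks equal deviations, and the Sirpa axes are wider. Points follow the line for Sirpa (r = 0.95) and Siglecf (r = 0.87) and scatter for Siglece (r = 0.16).

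The mice that set these ranks can be named. In Siglecf, mouse 1 of each genotype was the lowest untreated and mouse 1 of the wild type the lowest with IL-33. In Sirpa, wild-type mouse 2 and knockout mouse 4 were the highest and wild-type mouse 3 and knockout mouse 1 the lowest of their genotype in both treatments. Summed over 8 genes, the markers of progenitor cells ran opposite to Sirpa in most of these mice. Their summed signal untreated was 6470 in wild-type mouse 3 and 3880 in knockout mouse 1, the highest of each genotype, and 2980 in wild-type mouse 2, the lowest of the wild type; in the knockout the lowest, 2640, was mouse 2 and not mouse 4. It was 2640 to 3880 in untreated knockout and 2980 to 6470 in untreated wild-type cells, and 2080 to 3070 and 2450 to 4850 after IL-33. Of the 8 progenitor markers 4 fell with IL-33 in each genotype, where 26.7% and 33.2% of all tested genes fell. Most of the sum came from Mki67, Myb and Gata2, with untreated wild-type means of 10.58, 10.43 and 9.85, where Hoxa9, the next, had 6.93. Mki67 and Myb did not pass with IL-33 in either genotype in limma. The part of the progenitor markers in the Sirpa differences was not tested.

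The genes most like each receptor over the 20 arrays were found by Pearson's r of the log2 values, given as a description because the arrays share mice and treatment. Siglece was nearest to Sod2 (r = 0.979), Slc18a2 (0.979) and Nfkb2 (0.978), and the mean of Nfkb2, a subunit of NF-kB, was 6.69 and 6.62 in untreated and 9.23 and 9.16 in IL-33 cells of the wild type and the knockout. Siglecf was nearest to Rcn1 (0.936), Rgs1 (0.935) and Cerk (0.928), and by deviations from the group means to Unkl (0.864), Angpt1 (0.849) and Slc9a8 (0.847). Sirpa was nearest to Sin3b (0.98), the CD300 family gene Cd300lb (0.976) and the survival gene Mcl1 (0.972). Cd300lf was nearest to the noncoding RNA gene Morrbid (0.892), Retnla (0.888) and B430306N03Rik (0.881). Its second neighbour Retnla, a secreted type 2 response protein, had means of 8.48, 9.27, 9.42 and 10.54 in untreated wild-type, untreated knockout, IL-33 wild-type and IL-33 knockout cells, so the fourth group was the highest as in Cd300lf. Cd33 was nearest to Akr1c12 (0.937), Tnfrsf14 (0.933) and Renbp (0.926), Cd300a to Nrbf2 (0.972), Kpna4 (0.955) and Erbin (0.954), Siglecg to Utp14b (0.894), and Cd22 to Ezh1 (0.882).

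The receptors were set beside the partners through which they act, from lists of related genes. Over all tested genes 16.1% rose and 26.7% fell with IL-33 in wild-type cells, 42.7% in all, and 18.9% rose and 33.2% fell in knockout cells, 52.2% in all, and the counts of each list stand beside these shares. Of 16 tested genes of other inhibitory receptors, 8 rose and 1 fell in wild-type cells, and 9 rose and 2 fell in knockout cells, with medians of 0.36 and 0.40. Pilra, an ITIM receptor of myeloid cells, rose by 3.95 ± 0.15 and 4.10 ± 0.15, Milr1 (allergin, an inhibitor of mast cells) by 1.48 ± 0.11 and 1.36 ± 0.11, and Havcr2 (TIM-3) by 1.17 ± 0.16 and 1.62 ± 0.16. Ceacam1 rose by 0.89 ± 0.11 and 0.95 ± 0.11. Pirb, at 0.08 ± 0.12 and 0.00 ± 0.12, and Cd72, at 0.02 ± 0.10 and -0.23 ± 0.10, did not pass in limma.

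Activating relatives of these receptors often signal through the adaptor DAP12 (gene Tyrobp). The list used for them also held adaptor genes and other Siglec genes, not activating receptors alone. Of its 18 tested genes, 6 rose and none fell in wild-type cells, and 7 rose and 3 fell in knockout cells. The medians were 0.16 and 0.23. With the mouse as a fixed block 12 of the 18 passed in wild-type cells, where 57.8% of all tested genes passed. Without the block 42.7% of all tested genes passed. Clec4e (Mincle) rose by 3.82 ± 0.15 and 4.00 ± 0.15, and Pilrb1, the activating partner of Pilra, by 2.25 ± 0.11 and 2.37 ± 0.11. Trem1, an amplifier of inflammation, rose by 1.70 ± 0.11 and 1.97 ± 0.11 and was higher in knockout cells after IL-33 (0.47 ± 0.11, adjusted p = 0.0373, limma). The adaptors Tyrobp, at -0.03 ± 0.07 and -0.04 ± 0.07, and Fcer1g, at 0.08 ± 0.05 in each genotype, did not pass.

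Of 20 tested genes of signalling proteins downstream of the receptors, 5 rose and 4 fell in wild-type cells and 5 rose and 6 fell in knockout cells, with medians of -0.10 and -0.13. These counts were near the shares of all tested genes that passed, 42.7% and 52.2%. Ptpn11, the gene of SHP-2, rose by 0.74 ± 0.07 and 0.79 ± 0.07, the adaptor Fyb by 1.40 ± 0.16 and 1.55 ± 0.16, and the Src-family kinase Fgr by 0.59 ± 0.14 and 0.54 ± 0.14. Skap2, the adaptor that couples Sirpa signalling to integrins, fell by 0.53 ± 0.12 and 0.66 ± 0.12. Ptpn6, the gene of SHP-1, rose by 0.59 ± 0.08 and 0.55 ± 0.08. Inpp5d, the gene of SHIP-1, was at -0.19 ± 0.11 and -0.16 ± 0.11 and did not pass.

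**Figure D4:**
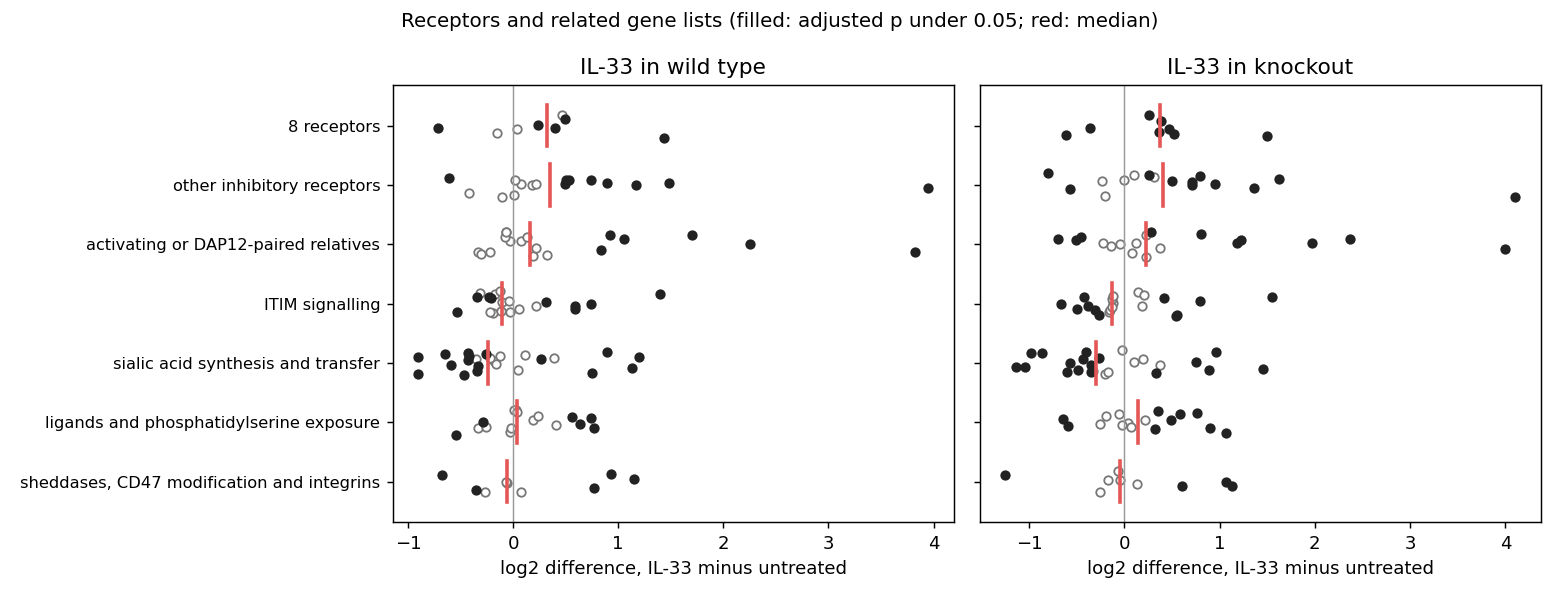
Log2 difference, IL-33 minus untreated (x axis), of the 8 receptors and of the tested genes of 6 related lists (rows) in wild-type (left) and knockout (right) cells; filled points have an adjusted p under 0.05 in limma and red bars are medians. The median is 0.32 and 0.38 for the 8 receptors and -0.24 and -0.30 for sialic acid synthesis and transfer.

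On the ligand side, of 24 tested genes of sialic acid synthesis and transfer, 5 rose and 11 fell in wild-type cells, and 5 rose and 12 fell in knockout cells, with medians of -0.24 and -0.30. More genes fell than rose over all tested genes too, 26.7% against 16.1% and 33.2% against 18.9%. The lysosomal sialic acid exporter Slc17a5 fell by 0.90 ± 0.08 and 1.14 ± 0.08, and the ganglioside sialyltransferase St3gal5 by 0.90 ± 0.16 and 1.04 ± 0.16. St3gal4 rose by 1.13 ± 0.07 and 1.46 ± 0.07, and St6gal1, the enzyme that makes the ligand of Cd22, rose by 1.20 ± 0.07 and 0.89 ± 0.07. St6gal1 was lower in knockout cells after IL-33 (-0.26 ± 0.07, adjusted p = 0.0483, limma), as was Nanp, a phosphatase of sialic acid synthesis (-0.49 ± 0.12, adjusted p = 0.0357).

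Among 16 tested genes of protein ligands and of phosphatidylserine exposure, 4 rose and 2 fell in wild-type cells and 7 rose and 2 fell in knockout cells, with medians of 0.04 and 0.15; with the mouse as a fixed block 10 of the 16 passed in wild-type cells, near the 57.8% of all tested genes in that fit. Cd47, the ligand of Sirpa, was at -0.03 ± 0.13 with IL-33 in wild-type cells and rose by 0.35 ± 0.13 in knockout cells (adjusted p = 0.0315, limma). After IL-33 its mean was 5.54 ± 0.10 in knockout and 4.75 ± 0.12 in wild-type cells, a difference of 0.79 ± 0.13 (adjusted p = 0.00658), while its interaction, 0.38 ± 0.19, did not pass (adjusted p = 0.999). The lipid scramblase Xkr8, which exposes phosphatidylserine for CD300 receptors, rose by 0.74 ± 0.08 and 0.90 ± 0.08, and Plscr1 by 0.77 ± 0.14 and 1.07 ± 0.14. Thbs1, which encodes another ligand of CD47, was at 0.41 ± 0.17 in wild-type cells (adjusted p = 0.0642) and rose by 0.76 ± 0.17 in knockout cells. Cd52, whose protein binds a human Siglec, rose by 0.64 ± 0.10 and 0.58 ± 0.10.

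The last list held 9 tested genes of sheddases, CD47 modification and integrins, of which 3 rose in each genotype, 2 fell in wild-type and 1 fell in knockout cells, with medians of -0.06 and -0.04. The 5 and 4 genes of 9 that passed stand beside 42.7% and 52.2% of all tested genes. Adam17, a protease that sheds surface receptors, rose by 0.77 ± 0.07 and 0.61 ± 0.07, and the adhesion receptor Cd44 by 1.15 ± 0.14 and 1.07 ± 0.14. Furin, which activates such proteases, rose by 0.93 ± 0.09 and 1.13 ± 0.09 and was higher in knockout cells after IL-33 (0.37 ± 0.09, adjusted p = 0.0449, limma). Qpct, a glutaminyl cyclase related to the enzyme that modifies CD47 for Sirpa binding, was lower, at -0.68 ± 0.18 and -1.25 ± 0.18. Qpctl, the gene of that enzyme itself, was at -0.35 ± 0.13 in wild-type cells (adjusted p = 0.0334, limma). In knockout cells Qpctl was at -0.17 ± 0.13 and did not pass (adjusted p = 0.276). The integrin genes Itgam, at -0.27 ± 0.14 and -0.25 ± 0.14, and Itgb2, at -0.06 ± 0.06 and -0.04 ± 0.06, did not pass.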

How the data were processed

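Total RNA of 20 eosinophil cultures was converted to biotin-labelled cRNA with an Affymetrix 3′ IVT kit and hybridised to arrays, per the labels' protocols. The values are log2 expression in a single table that the authors deposited, with 20630 rows of probe sets and 20 columns. The log2 scale was read from the values, whose array medians lay between 4.25 and 4.32. Not given in the sources used here are the background correction, the normalization and the genome build; any between-array scaling by the authors sets the size of genotype differences. Each sample's group is that of its genotype and treatment entries, since the sample titles do not name IL-33.

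Besides 2 controls, which were left out, the annotation gave 1 gene symbol for 17826 probe sets, several for 91 and none for 2711; 17675 matched a RefSeq gene (GRCm38.p6) by gene number. The probe set with the highest mean stood for a gene. Genes above the 40th percentile of an array on at least 5 arrays were tested by lmFit and eBayes of limma 3.58.1 (R 4.3.3; a mean for each group, 16 residual degrees of freedom), after the script was tested on simulated data. The series text names 5 mice per genotype. Deviations of same-numbered arrays of a genotype correlated at 0.262 to 0.783, each of the 10 highest with its own number, and equal numbers are therefore treated as the same mouse. Adjusted p-values are Benjamini-Hochberg over 11767 genes. The number of arrays limits the precision.

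The receptors, related lists, markers and motifs were chosen with earlier results of these data known. All 8 receptors are named. Of each related list, up to 4 called members with the largest change with IL-33, up to 2 not called, and any called between genotypes are named. Also named are Dusp5, Epx, Prg2, Ptpn6, Qpctl, some cell markers and up to 3 genes nearest in pattern to each receptor.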

Additional observations from a re-analysis of the deposited data

Results flagged for a closer look

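Siglece in wild-type cells with IL-33 had 1 array far from the others. Mouse 2 read 5.17, and the next lowest array read 5.38, a gap of 0.74 of the whole range of the 5 arrays, above the 0.71 that marks an outlier among 5. All 4 groups of each of the 8 receptors were examined in this way, and chance alone marks about 1 group in 20. Mouse 2 is also the wild-type mouse with the lowest Epx values, and the part of its cell makeup in this value was not tested.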

How the results depend on the processing

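Of 1096 receptor differences under other settings, 1010 kept their direction and side of the threshold, 39 lost their call, 14 gained one and 33 changed sign. The receptors passing between genotypes after IL-33, 1 of 8, became 0 when only the 2 groups were fitted and ranged from 0 to 3 over omitted arrays or mice, and between untreated genotypes from 0 to 1. Genes passing after IL-33, 260 in all, became 152 with no dim filter, 444 at the 60th percentile, 24 with only the 2 groups and 514 with a random block, and ranged from 24 to 2094 over omissions. The 3 genes between untreated genotypes ranged from 3 to 651, and the 0 of the interaction became 26 with a random block and ranged from 0 to 3. The sign changes were of small differences, with no adjusted p under 0.05. Siglece between genotypes after IL-33 was 0.05 with quantile normalization, which moved no receptor mean by more than 0.11. Over omissions it ranged from -0.06 to 0.05, Siglece untreated from -0.16 to 0.02, Cd33 after IL-33 from -0.08 to 0.01 and Cd300lf with IL-33 in wild-type cells from -0.01 to 0.07. The interactions ranged from -0.00 to 0.19 for Siglecf, -0.03 to 0.15 for Siglece, -0.06 to 0.07 for Siglecg and -0.10 to 0.22 for Sirpa. The cause of these shifts was not tested. The mouse as a replicate block gave Sirpa a call in wild-type cells (adjusted p = 3.0e-05, limma) and changed no other receptor's call. No receptor had a second probe set, so that alternative could not be run.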
